A study of Canis lupus familiaris with 15 samples.

Results

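KIT and MS4A2 are the only mast cell genes recognised on a custom NanoString panel of 160 probes, measured in skin of 15 dogs. They were found by matching the RefSeq accession of each probe, without its version, to the dog gene table of the assembly UU_Cfam_GSD_1.0, which gave a symbol for 72 of the 160 probes and 1 probe for each of the genes (NM_001003181.1 for KIT, NM_001003172.2 for MS4A2). The other 88 probes have no symbol here, so further mast cell genes among them were not looked at. No coordinates are given because the deposited counts name no genome build, and the gene table was used for names alone.

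The groups were 7 dogs with discoid lupus erythematosus (DLE, aged 1 to 13 years) and 5 dogs sampled at healthy excision margins of the leg, with no age in the labels. The latter are called healthy dogs here, though the titles call the margin healthy and do not describe the animal. Single dogs had chronic cutaneous lupus in which systemic lupus was suspected (CCLE, 1 dog, 7 years), mucocutaneous lupus (MLE, 1 dog, 6 years) and pyoderma, a bacterial skin infection (1 dog, 9 years). Breed and sex varied among the lesional dogs and are not in the labels of the healthy dogs. All samples were archival fixed biopsies, no treatment is listed, and the body site of the lesions is not given. The healthy samples are re-used from an earlier series, and the pyoderma dog once carried the label DICLE.

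KIT encodes the receptor tyrosine kinase for stem cell factor. Mast cells need this signal to mature and survive in tissue and keep the receptor throughout life, and melanocytes carry it as well. MS4A2 encodes the beta chain of the high-affinity IgE receptor, which amplifies the signal that leads to degranulation and is found on mast cells and basophils. In skin, mast cells lie in the dermis around vessels, nerves and hair follicles, and dogs are known for mast cell tumours with mutated KIT. In a whole biopsy, fewer mast cells and less RNA per cell cannot be told apart.

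Counts over the panel summed to 209889 to 675018 per dog. The background limit, the mean plus 2 SD of the 8 lowest control rows of a dog, lay between 13.6 and 30.0 counts. The spike-in control rows that carried high counts were one group of rows in the healthy dogs and the CCLE dog, called set B (6 dogs), and another in the remaining dogs, called set A (9 dogs). All DLE dogs thus fall in set A and all healthy ones in set B, and for the main comparison disease and set cannot be told apart. The control rows held 8.04% to 33.3% of the counts in healthy dogs and 7.87% to 15.4% in DLE dogs. The keratin probe KRT5, a marker of basal keratinocytes, lay above background in all 7 DLE and all 5 healthy dogs. The labels give each sample a case or margin number, and p-values describe variation among dogs only where each sample is a separate animal.

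KIT was above background in all 15 dogs, from 6.79 times the limit in the MLE dog to 30.1 times in healthy dog 3. In healthy dogs 1 to 5 its TMM-normalised count, the count divided by an edgeR trimmed-mean library size, was 327, 553, 419, 471 and 618. In the 7 DLE dogs it ran from 211 in DLE dog 2 to 416 in DLE dog 3, with a median of 298. Of the DLE dogs 6 lay below every healthy dog, and only DLE dog 3 reached into the healthy range. The means were 478 ± 113 (SD, n = 5) in healthy and 294 ± 66.9 (n = 7) in DLE skin.

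KIT thereby fell by 0.70 on the log2 scale in DLE skin (SE 0.23, 95% interval -1.20 to -0.19, edgeR adjusted p = 0.0182), which is 1.62-fold. Leaving out healthy dog 5, the dog with the highest KIT level, moved the change to -0.59 and ended the call (edgeR adjusted p = 0.0568).

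MS4A2 was above background in all 15 dogs too, by 2.36 times in the MLE dog and by 6.65 times or more in the others. Its TMM-normalised count was 445, 298, 278, 289 and 362 in healthy dogs 1 to 5. In the 7 DLE dogs it ran from 157 in DLE dog 1 to 279 in DLE dog 4, with a median of 180. Of the DLE dogs 6 lay below every healthy dog, and DLE dog 4 lay just above healthy dog 3. The means were 334 ± 69.9 (SD, n = 5) in healthy and 209 ± 51.6 (n = 7) in DLE skin.

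MS4A2 fell by 0.68 on the log2 scale (SE 0.24, 95% interval -1.19 to -0.17, edgeR adjusted p = 0.0228), a 1.60-fold fall close in size to that of KIT. Leaving out healthy dog 1, the dog with the highest MS4A2 level among the healthy, moved it to -0.55 and ended the call (edgeR adjusted p = 0.0688). Both members were thus called lower, on a panel where 24.0% of the 154 tested probes were called lower and 61.7% were called in either direction. In the order of log2 changes from the lowest, KIT was 48th and MS4A2 was 49th of 154.

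**Figure D1:**
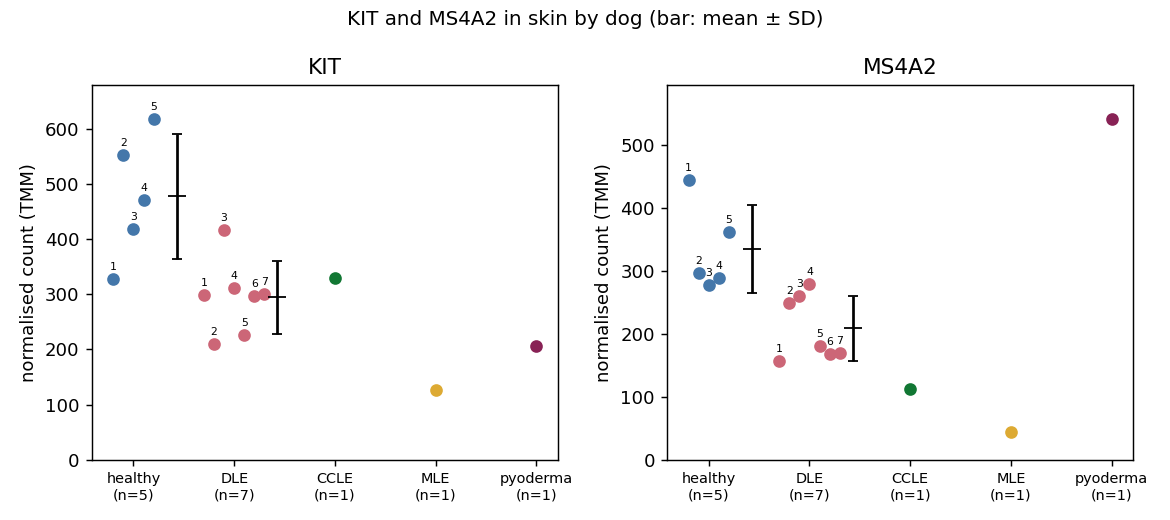
TMM-normalised counts of KIT (left) and MS4A2 (right) for each dog, by group on the x axis; points are dogs, small numbers are replicate numbers, and bars give the mean ± SD of the healthy and DLE groups. For each gene 6 of 7 DLE dogs lie below all 5 healthy dogs, and the pyoderma dog has the highest MS4A2 value of 542.

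The size of both falls depended on how dogs were scaled to one another. Scaled to the reference genes HPRT1, an enzyme of purine salvage, and RPL13A, a ribosomal protein gene, KIT differed by -0.02 (95% interval -0.56 to 0.52, edgeR adjusted p = 0.954) and MS4A2 by 0.07 (-0.51 to 0.65, adjusted p = 0.827). With that scaling 11.0% of probes were called lower and 53.2% higher. All 7 DLE dogs then lay inside the healthy range of KIT, and for MS4A2 all 5 healthy dogs lay inside the DLE range. Scaled to the sum of the spike-in rows, KIT differed by -0.35 (-1.33 to 0.62) and MS4A2 by -0.21 (-1.21 to 0.78), and neither was called (adjusted p = 0.549 and 0.736, with 11.0% of probes called lower). The rows with high counts in that sum are different rows in DLE and in healthy dogs, so this scaling compares unlike controls. Scaled to the panel median, both were called lower with larger changes, -1.34 for KIT and -1.37 for MS4A2.

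The panel as a whole moved with the scaling, and both genes moved with it. The median log2 change of all tested probes was 0.42 under TMM, 1.07 with the reference genes, 0.70 with spike-ins and -0.25 with the panel median. Relative to that median, KIT stood at -1.12, -1.08, -1.05 and -1.09 under these scalings, and MS4A2 at -1.10, -0.997, -0.91 and -1.12. Each of these scalings shifts all probes of a dog alike, so a near-constant distance from the panel median follows from the arithmetic. It is no evidence on the genes. The sign against 0 did not hold for MS4A2 with the reference genes. With the set as a block, in 9 lupus against 6 control dogs, KIT stood at -0.01 from the panel median and MS4A2 at -1.51. The typical probe is no neutral standard, since the panel was designed by the authors and 58 of its probes were called higher under TMM.

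Ratios to the 2 reference genes had opposite signs. Under TMM, HPRT1 ran from 510 to 712 normalised counts in DLE and from 693 to 1040 in healthy dogs, and RPL13A from 11246 to 20668 and from 21824 to 41117. The groups overlapped for HPRT1 and did not for RPL13A, which was lower in every DLE dog. In ratios of raw counts, which need no scaling, KIT to HPRT1 differed by -0.30 on the log2 scale between DLE and healthy dogs (exact permutation p = 0.168), and KIT to RPL13A by 0.31 (exact permutation p = 0.265). MS4A2 to HPRT1 differed by -0.29 (exact permutation p = 0.21) and MS4A2 to RPL13A by 0.32 (exact permutation p = 0.287). Adjusted over the 8 ratios tested, each of these 4 had an adjusted p of 0.459, so none passed the threshold of 0.05.

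**Figure D2:**
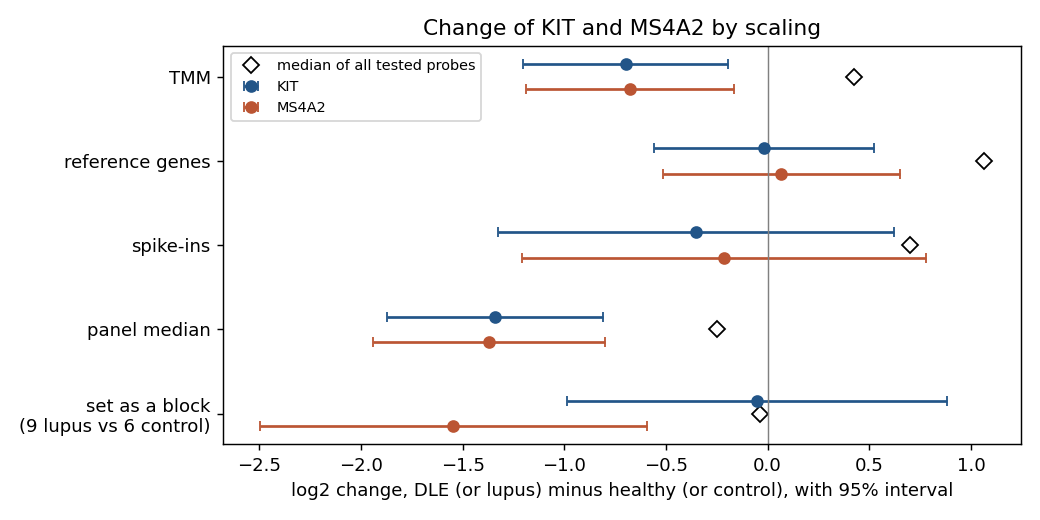
Log2 change of KIT and MS4A2 on the x axis with 95% edgeR intervals, by scaling on the y axis, for 7 DLE against 5 healthy dogs in the upper 4 rows and for 9 lupus against 6 control dogs with the set as a block in the lowest row; open diamonds mark the median of all tested probes. The intervals of both genes exclude 0 under TMM and panel median scaling and include it with reference genes and spike-ins.

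The ratio of MS4A2 to KIT counts is free of scaling between dogs. Probes bind with unequal efficiency, so a ratio is compared between dogs and says nothing of which transcript was more abundant. It was 1.36, 0.538, 0.664, 0.613 and 0.586 in healthy dogs 1 to 5. In the 7 DLE dogs it ran from 0.527 in DLE dog 1 to 1.18 in DLE dog 2, with a median of 0.626. The groups overlapped, with 6 of 7 DLE dogs inside the healthy range.

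The mean ratio was 0.752 ± 0.343 (SD, n = 5) in healthy and 0.737 ± 0.240 (n = 7) in DLE skin. The mean log2 ratios differed by 0.0039 (two-sided exact permutation p = 0.99, adjusted p = 0.99 over 8 ratios). The values compatible with the same test at the 95% level ran from -0.65 to 0.59, or 0.637-fold to 1.51-fold, and changes of the ratio within these bounds cannot be told from none with these dogs. Healthy dog 1 stood apart at 1.36, and without it the difference was 0.24 (exact permutation adjusted p = 0.659). That dog had the lowest panel total of all, 209889 counts, and the highest share of control rows, 33.3%; the part of these in its ratio was not tested.

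**Figure D3:**
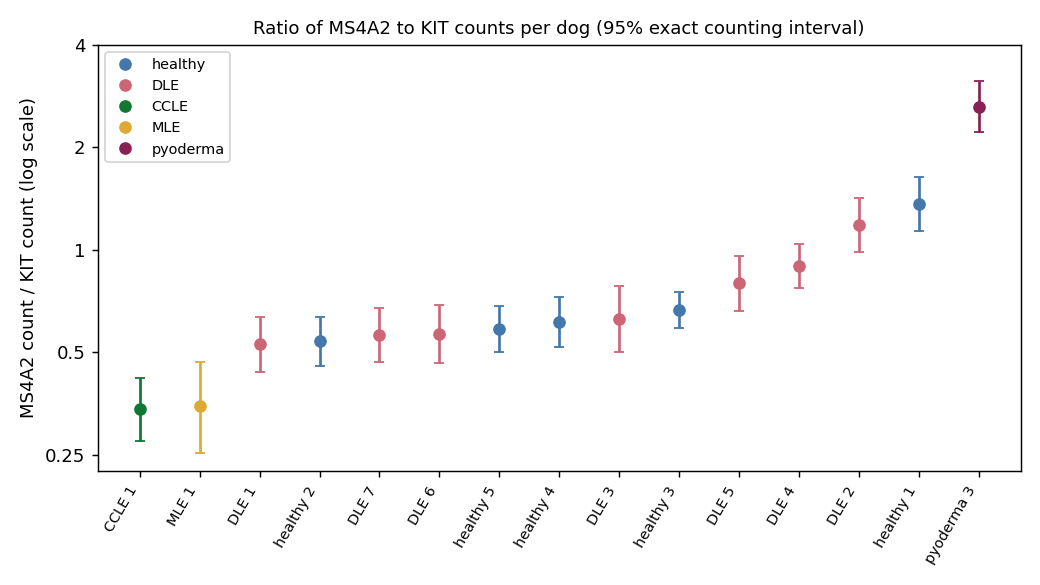
MS4A2 count over KIT count on a log scale for each of the 15 dogs, ordered from lowest to highest and coloured by group; bars are 95% exact binomial intervals for counting error only. Healthy and DLE dogs are interleaved between 0.527 and 1.36, the CCLE and MLE dogs lie below them at 0.341 and 0.347, and the pyoderma dog lies above at 2.63.

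The single dogs, which were compared without a test, lay at both ends of the ratio. In the CCLE dog the ratio was 0.341 (95% exact binomial interval 0.275 to 0.421, counting error only) and in the MLE dog 0.347 (0.254 to 0.469). Both were below every DLE and every healthy dog, while their own intervals overlapped widely. The interval of the CCLE dog ended below that of the lowest DLE dog (0.436 to 0.636), and that of the MLE dog overlapped it. In the pyoderma dog the ratio was 2.63 (2.21 to 3.14), above every other dog and 3.73-fold the geometric mean of the healthy dogs.

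In the CCLE dog the low ratio came with a low MS4A2 level. Its TMM-normalised MS4A2 count was 113, below the lowest of the healthy dogs (278) and of the DLE dogs (157). Its KIT count of 330 lay inside both ranges, as it did with reference genes and spike-ins, and with panel median scaling KIT lay below the healthy range (-1.10 from the healthy mean) and inside the DLE range. On the log2 scale MS4A2 stood 1.54 under the healthy mean (a difference of -1.54), and -1.01 with the reference genes and -0.86 with spike-ins, below both ranges each time.

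In the MLE dog both genes were low. KIT stood at 126, against a lowest healthy level of 327 and a lowest DLE level of 211, and MS4A2 stood at 43.7, the lowest of all 15 dogs. The difference from the healthy mean on the log2 scale was -1.88 for KIT and -2.88 for MS4A2 under TMM. With spike-in scaling it was -0.73 for KIT, inside the healthy range, and -1.75 for MS4A2, still below it. The raw MS4A2 count of 59 (95% Poisson interval 44.9 to 76.1) compared with a background limit of 25.04 in that dog.

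In the pyoderma dog the genes went opposite ways under TMM. MS4A2 stood at 542, above the highest healthy (445) and DLE (279) dogs. KIT stood at 206, below the lowest healthy dog (327) and just below the lowest DLE dog (211). MS4A2 lay above the DLE range under each of TMM, reference gene, spike-in and panel median scaling. Against the healthy range it lay above under TMM and with the reference genes, and inside with spike-ins and the panel median. The low KIT level held against the healthy range under TMM and the panel median, and KIT lay inside that range with the reference genes (-0.10 from the healthy mean) and with spike-ins (-0.74). Against the DLE range KIT lay below under TMM and with spike-ins, and inside with the reference genes and the panel median.

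Only the CCLE and pyoderma dogs separate lupus from the control row set. Within set B, the CCLE dog differed from the mean of 5 healthy dogs by -0.50 for KIT and by -1.54 for MS4A2 on the log2 scale. Within set A, the 8 lupus dogs differed from the pyoderma dog by 0.33 for KIT and by -1.68 for MS4A2. The within-set differences of MS4A2 had the same sign and those of KIT did not. With the set as a block, 9 lupus against 6 control dogs gave a log2 change of -1.55 for MS4A2 (edgeR adjusted p = 0.0181) and of -0.05 for KIT (edgeR adjusted p = 0.952), with 3.90% of 154 probes called lower. The blocked difference in the log2 ratio of MS4A2 to KIT was -1.55 among lupus dogs (exact permutation p = 0.0185, with labels exchanged inside each set and no smaller p possible from 54 choices; adjusted p = 0.0741). These blocked values rest on 1 dog in each set, and the pyoderma dog is itself a lesion.

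Since melanocytes also express KIT, the pigment cell genes DCT and TYR, enzymes of melanin synthesis, and MC1R, the melanocortin receptor, were set beside it. None of the 3 was called in DLE skin (log2 0.19, -0.13 and 0.01, edgeR adjusted p = 0.863, 0.85 and 0.984). Their levels varied widely between dogs: raw DCT counts ran from 7 in the pyoderma dog to 1000 in healthy dog 3. In the MLE and pyoderma dogs all 3 pigment genes lay below the background limit, as they did in DLE dog 2, while KIT was still counted 170, 181 and 222 times there. In DLE dog 2 MC1R was only just below the limit (20 counts against 20.2). The part of melanocytes in the KIT signal was not tested.

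The ratio of KIT to each pigment gene differed between DLE and healthy dogs by -0.17 for DCT, -0.54 for TYR and -0.64 for MC1R on the log2 scale (exact permutation p = 0.88, 0.413 and 0.24, adjusted p = 0.99, 0.551 and 0.459). TYR and MC1R were above background in 3 of 5 healthy dogs each and in 4 and 5 of 7 DLE dogs, so these ratios are partly set by background. The sign for DCT depended on single dogs.

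**Figure D4:**
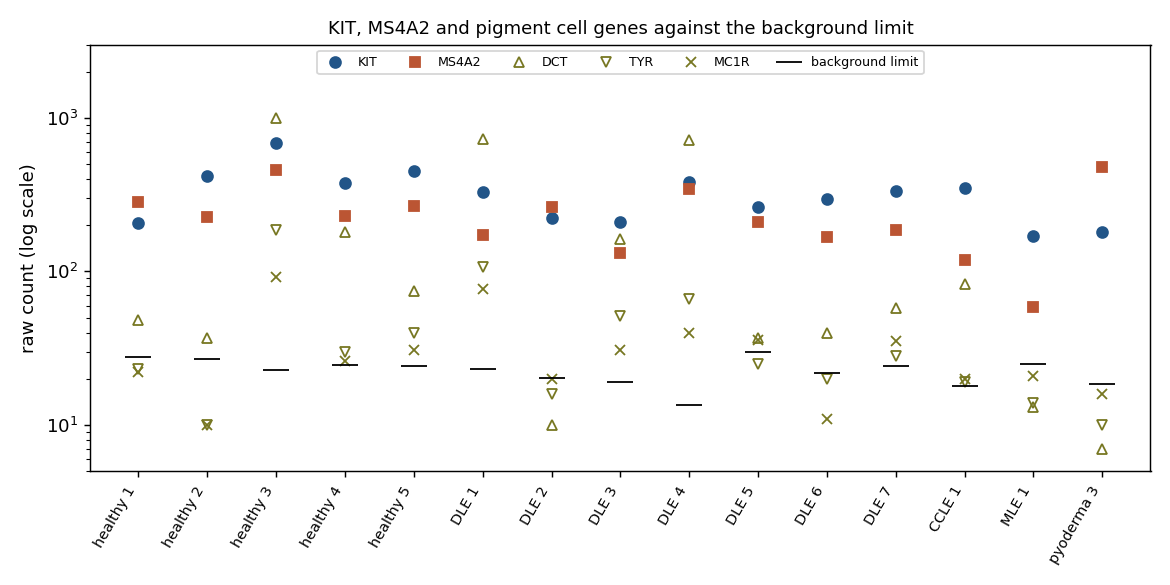
Raw counts on a log scale of KIT, MS4A2 and the pigment cell genes DCT, TYR and MC1R for each of the 15 dogs, with the background limit of each dog as a black dash. KIT and MS4A2 lie above the dash in every dog, whereas all 3 pigment genes lie below it in DLE dog 2, the MLE dog and the pyoderma dog.

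Within the 7 DLE dogs, the relation of KIT and MS4A2 levels depended on the scaling. On log2 TMM-normalised counts Pearson's r was 0.18 (exact permutation p = 0.739) and Spearman's rho 0.36 (exact permutation p = 0.444). Without the 2 dogs farthest from the median KIT level, DLE dogs 2 and 3, r was 0.22. Over all 7 dogs r was 0.43 with reference genes and 0.72 with spike-ins (exact permutation adjusted p = 0.438 and 0.124), where rho was 0.25 and 0.18 (exact permutation p = 0.595 and 0.713). Without the 2 dogs farthest from the median KIT level under each of these scalings, r was -0.36 and 0.39, so neither value held without those dogs. Under TMM, KIT correlated more with TYR (r = 0.76, exact permutation p = 0.0385; rho = 0.86, p = 0.0238) and DCT (r = 0.72, p = 0.0736; rho = 0.75, p = 0.0663), and less with MC1R (r = 0.48, p = 0.273; rho = 0.68, p = 0.11). Adjusted over the 4 relations, r had p-values of 0.739 for MS4A2, 0.147 for TYR and DCT and 0.364 for MC1R, and rho had 0.444, 0.0952 for TYR, 0.133 for DCT and 0.146 for MC1R, so none passed. Without DLE dogs 2 and 3, r was 0.44 for TYR, 0.55 for DCT and 0.0067 for MC1R. The relations of KIT with TYR and DCT passed with spike-in scaling (r = 0.79 and 0.86, exact permutation adjusted p = 0.0349 and 0.0151). There rho was 0.93 and 1.00, and without DLE dogs 2 and 4, the farthest from the median KIT level, r was 0.82 for each. For MC1R r did not pass (0.64, exact permutation adjusted p = 0.124) and rho did (0.86, exact permutation adjusted p = 0.0317). Under spike-in scaling a dog with few control counts is high for every gene.

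Across all 15 dogs, the probes with a symbol whose log2 normalised counts were most like those of KIT were RPL13A (Pearson r = 0.76), the keratinocyte chemokine CCL27 (0.76) and the cytochrome P450 enzyme CYP1B1 (0.74), with 6 probes without a symbol above the last of them. MS4A2 came 26th of 159 probes for KIT (0.53). With reference gene scaling these likenesses to CCL27 and CYP1B1 were 0.36 and 0.35. Those most like MS4A2 were CCL27 (0.64), the monocyte and eosinophil chemokine CCL13 (0.63), CCL1 (0.56) and the eosinophil chemokine CCL24 (0.55), with 5 probes without a symbol above the last. With reference genes these likenesses were 0.42, 0.64, 0.57 and 0.29, and with spike-ins 0.52, 0.66, 0.66 and 0.29. CCL1 was above background in only 1 of 7 DLE and 1 of 5 healthy dogs, so its likeness rests mostly on counts at background. These values mix groups that differ in level and share the scaling of each dog, and they are given as a description.

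Within the 7 DLE dogs alone the order was another. Most like KIT were the chemokine CX3CL1 (r = 0.80), the interferon alpha probe IFNA7, which may bind related family members (0.78), TYR (0.76) and the nuclear receptor PPARA (0.72). Above PPARA came 6 probes without a symbol, 2 of them above CX3CL1. With reference genes these values were 0.53, 0.68, 0.57 and 0.62, and with spike-ins 0.81, 0.66, 0.79 and 0.48. CX3CL1 was above background in all 7 DLE dogs, TYR in 4, and IFNA7 and PPARA in 3 each. The likenesses of TYR, IFNA7 and PPARA thus rest partly on counts at background. Most like MS4A2 were CCL24 (0.92), IL4 (0.91), IFNG, the type II interferon (0.88), and the chemokine CCL3 (0.84), with no unnamed probe above them. IL4, a type 2 cytokine made by T cells, basophils and mast cells, was above background in only 1 of the 7 DLE dogs, at raw counts of 5 to 16, so its likeness rests on counts at background. CCL24 was above background in all 7, from 23.6 normalised counts in DLE dog 1, which also had the lowest MS4A2 level, to 110 in DLE dog 3. Its raw count was close to the limit in DLE dog 1 (26 against 23.3) and DLE dog 5 (35 against 30.0). The low end of this likeness thus lies near background. The likeness of CCL24 to MS4A2 was 0.87 with reference genes and also 0.87 with spike-ins. CCL24 itself was lower in DLE skin (53.4 ± 31.3 in 7 DLE against 392 ± 268 in 5 healthy dogs, log2 -2.88, edgeR adjusted p = 0.000356), a call that ended with the set as a block (-1.28, adjusted p = 0.242). It was 75.1 in the pyoderma dog, inside the DLE range, where MS4A2 was highest.

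Of 16 mast cell genes written down, only KIT and MS4A2 matched a probe, so enzymes of the mast cell granule were not read. Of 23 genes of mast cell growth and activation, 8 were tested, of which 5 were called lower (24.0% of all tested probes were), 0 higher and 3 not called, with a median log2 change of -0.92 against 0.42 over all tested probes. The lower ones were ADRB1, the beta-1 adrenergic receptor (log2 -2.53, above background in only 1 of 7 DLE dogs), CXCL12, a stromal chemokine (-1.99), and TACR1, the receptor of the neuropeptide substance P (-1.82). PTGER4, a receptor of prostaglandin E2, averaged 346 ± 85.8 normalised counts in 7 DLE against 694 ± 131 in 5 healthy dogs (2.01-fold lower, edgeR adjusted p = 0.00226), and IL4 was lower at background level (-0.84). ADRB1, CXCL12 and TACR1 stayed called lower with reference genes and with spike-ins, while PTGER4 (-0.29 and -0.49) and IL4 (-0.08 and -0.50) did not. None of the 5 was called with the set as a block (edgeR adjusted p from 0.159 to 0.961, with 3.90% of all tested probes called lower). IL13 (-0.37, above background in 5 of 7 DLE and 3 of 5 healthy dogs) and IL10 (0.06) were among those that did not pass.

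Among 14 genes of mediators that mast cells can release, 9 were tested, with 3 higher (37.7% of all tested probes were), 1 lower and 5 not called, and a median log2 change of 0.01. The higher ones were TNF (log2 1.81), which mast cells can store ready made, and the chemokines CCL4 (1.82) and CCL3 (1.26), each also made by macrophages and T cells; the CCL3 and CCL4 probes may bind the related transcript. With the set as a block TNF was still called higher (1.53), while CCL4 (0.92, edgeR adjusted p = 0.332) and CCL3 (-0.19, adjusted p = 0.834) were not. IL6 stood at -1.44 and CXCL8 at 0.01, and neither passed. KIT and MS4A2 were thus lower and TNF higher in the same DLE biopsies under TMM. IL13, a type 2 cytokine, was highest of all 15 dogs in the pyoderma dog (107 normalised counts), which also had the highest MS4A2 level; it is named because of that value.

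Markers of other cells moved between the same groups. MS4A1, the B cell member of the MS4A family, rose from 18.4 ± 2.87 normalised counts in 5 healthy to 196 ± 87.1 in 7 DLE dogs (log2 3.40, edgeR adjusted p = 1.69e-05), while MS4A2 of the same family was lower. MS4A1 was above background in all 7 DLE dogs and in only 1 of 5 healthy dogs, so the size of its rise is partly set by background. Of the markers tested, 1 of 1 of B cells and 3 of 3 of T and NK cells were higher, as were 1 of 2 of macrophages and 1 of 4 of keratinocytes, where 37.7% of all tested probes were higher. The other macrophage marker, CD163, was lower, and of 2 eosinophil chemokines CCL24 was lower and CCL26 (log2 0.41) did not pass. With the set as a block the log2 change of MS4A1 was 4.28. It was 2.62, 2.10 and 1.53 for the T and NK cell markers CD40LG, FOXP3 and KLRD1. Of the 5 healthy dogs, 1 was above background for CD40LG, 0 for FOXP3 and 4 for KLRD1. The changes of CD40LG and FOXP3 are thus partly set by background too. For the macrophage markers CD86 and CD163 the blocked change was 0.86 and -1.78, and for KRT14, the keratinocyte marker called higher, -0.03. With this block the calls of CD86 and KRT14 ended, while those of MS4A1, CD40LG, FOXP3, KLRD1 and CD163 held. KIT was the only class III receptor kinase matched. The part of this change in cell markers in the lower levels of KIT and MS4A2 was not tested.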

How the data were processed

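The authors deposited raw NanoString reporter counts per probe for 15 skin biopsies, with 14 ERCC control rows. Per the labels' protocols, RNA came from fixed, paraffin-embedded tissue; which counting software was used, and whether background was subtracted or values scaled, is not given in the sources used here. Counts ran from 1 upward, and exact Poisson and binomial intervals (95%) cover counting error only.

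TMM factors were computed over the 160 panel rows and all 15 dogs. The main test was edgeR 4.0.16 (glmQLFit, glmQLFTest) on 7 DLE and 5 healthy dogs, two-sided, on all panel probes but HPRT1 and RPL13A. Of 158 probes filterByExpr kept 154, and a probe was called at a Benjamini-Hochberg adjusted p under 0.05. Ratios were tested by exact permutation over 792 splits, whose smallest p is 0.00126, with adjustment over 8 ratios. Correlations used log2(normalised count + 1) and all 5040 pairings. limma 3.58.1 and DESeq2 1.42.0 served as alternatives.

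The members, lists and tests were chosen with earlier results of these data known. Named genes were KIT, MS4A2, the 3 largest changes of each list, a fixed set (IL4, TNF, IL6, MS4A1, TACR1, DCT, TYR, MC1R) and the 4 probes with a symbol most like each member, of which 1 is not reported here. Others named beside them, such as IL10, IL13, CXCL8, PTGER4, CCL26 and CD163, complete a list or were chosen after their values were seen. No pair of dogs in a group agreed within sampling noise (chi-square per degree of freedom of 162 or more).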

Additional observations from a re-analysis of the deposited data

Results flagged for a closer look

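Healthy dog 1 had an MS4A2 to KIT ratio of 1.36, while the other 4 healthy dogs lay between 0.538 and 0.664, a gap of 0.847 of the group's whole range. It was the only value far from the others of its group among the 12 sets checked, which were KIT, MS4A2, their ratio, DCT, TYR and MC1R in DLE and in healthy dogs. The limit used to pick such values is one that chance passes in about 5% of groups.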

How the results depend on the processing

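KIT kept its sign under all alternatives run, but its call ended with reference genes (log2 -0.017), spike-ins (-0.35), the set as a block (-0.051), and in the 9 lupus against 6 control dogs without that block (-0.63), a comparison chosen after seeing the data. MS4A2 turned to 0.068 with reference genes, and its call ended with spike-ins (-0.21). The spike-in sum rests on different high-count rows in DLE and in healthy dogs. The replicate block, with the shared numbers of DLE and healthy dogs as blocks, gave -0.72 for KIT (edgeR adjusted p = 0.107) and -0.58 for MS4A2 (edgeR adjusted p = 0.18) and ended both calls; it gave 0.14 for their ratio and called 85 probes against 95. The numbers are not known to pair dogs: same-numbered dogs correlated from -0.14 to 0.17, and 4 of 5 correlated best with their own number. With 1 dog left out, KIT ranged from -0.81 to -0.59, MS4A2 from -0.76 to -0.55, the ratio from -0.12 to 0.24 and the count of probes called from 91 to 98. The set as a block called 40 probes. For uncalled ratios the sign turned as follows: MS4A2 to KIT was -0.0085 with background subtracted, -0.034 after quantile scaling and -1.55 when blocked by set, where KIT to HPRT1 was 0.0087, KIT to RPL13A -0.00026 and MS4A2 to RPL13A -1.55. KIT to DCT was 0.23 with background subtracted, 0.41 as a difference of medians and -0.74 to 0.28 with 1 dog left out. The correlation of KIT with MS4A2 ran from -0.23 (without DLE dog 3) to 0.55 with 1 dog left out, and was 0.72 with spike-ins. The share of calls that were higher was 61.1% (TMM), 82.8% (reference genes), 76.7% (spike-in sum), 40.7% (panel median), 46.4% (quantiles) or 50.9% (DESeq2). The causes of these shifts were not tested. TYR, MC1R, IL4 and IL13, among others, lay at or below background in at least 2 DLE and 2 healthy dogs, while KIT and MS4A2 lay above it in all. The part of depth in this was not tested.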
